A study of Mus musculus with 3 samples.

Results

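Irf8, Flt3 and genes used as marks of dendritic progenitors were followed in RNA sequencing of LKS cells, a fraction of mouse bone marrow that lacks lineage markers, carries Kit and Sca1 and includes stem cells and early progenitors. The 8 genes (Irf8, Id2, Flt3, Clec9a, Cst3, Ifi30, Naaa and Plbd1) were matched by symbol, and all 8 were found among the 24982 gene symbols of the files. They were listed with their values in these libraries known, so the comparison of the libraries is given for them as a description, without a test. The groups were 2 libraries from wild-type (WT) recipient mice and 1 library from CD73-/- recipient mice (the KO library). CD73, the product of Nt5e, is the surface enzyme that makes adenosine from extracellular AMP. The labels call the mice recipients and do not say whether donor or recipient cells were sorted, how many animals gave a library, or their age and strain. They also describe the samples as LLP cells without explaining the term.

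IRF8 is a transcription factor that directs myeloid progenitors toward dendritic cells and monocytes and away from granulocytes. FLT3 is the cytokine receptor whose ligand drives the formation of dendritic cells, and it is carried by the multipotent and lymphoid-primed progenitors of the LKS gate. As dendritic progenitors mature toward the type 1 conventional lineage they keep IRF8 and gain the regulator ID2. They begin to express the receptor CLEC9A and a set of mostly endosomal and lysosomal proteins, some of which prepare antigen.

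The 8 genes did not move together in the KO library. Irf8 and Clec9a were above both WT libraries in the KO library, with counting intervals that did not overlap those of WT. For Irf8 the ratio of KO to WT replicate 2, 4.18, was smaller than that between the WT libraries, 41.2. Clec9a had 27 counts in KO and 0 in both WT libraries. Plbd1 was also highest in KO, at 9 counts against 1 and 2, with a counting interval that overlapped that of WT replicate 2. Flt3 was lower in the KO library than in both WT libraries, but its gap to WT replicate 1 was smaller than that between the WT libraries. Of all genes with a count in any library, 29.7% were above both WT libraries in KO and 33.0% were below both. Cst3 differed little between the libraries, Naaa and Ifi30 in KO were close to WT replicate 2 and not to WT replicate 1, and Id2 was at the limit of detection.

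The sequences before the start sites of Irf8 and Clec9a, the 2 members highest relative to WT, and of Flt3, the member on the low side, are shown to place the genes and to set side by side the stretches from which they are transcribed. They are the 250 bases before the start listed first in the RefSeq table (GRCm38.p6, the build of the files), 5′ to 3′ on the strand of the gene. Capitals mark matches to the motifs searched, TATAAA, the GC box GGGCGG and the E-box CAGGTG, on either strand.
Irf8, chr8:120736108-120736357, plus strand: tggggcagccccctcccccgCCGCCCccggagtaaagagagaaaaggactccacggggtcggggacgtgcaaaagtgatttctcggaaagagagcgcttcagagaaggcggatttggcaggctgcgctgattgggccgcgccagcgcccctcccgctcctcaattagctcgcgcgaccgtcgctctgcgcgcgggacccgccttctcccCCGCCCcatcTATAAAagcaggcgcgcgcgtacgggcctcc
Clec9a, chr6:129408612-129408861, plus strand: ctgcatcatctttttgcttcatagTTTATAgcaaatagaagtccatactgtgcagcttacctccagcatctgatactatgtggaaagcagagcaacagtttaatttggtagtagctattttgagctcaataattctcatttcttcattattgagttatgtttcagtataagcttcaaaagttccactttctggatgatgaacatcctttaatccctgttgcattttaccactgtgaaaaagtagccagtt
Flt3, chr5:147400490-147400739, minus strand: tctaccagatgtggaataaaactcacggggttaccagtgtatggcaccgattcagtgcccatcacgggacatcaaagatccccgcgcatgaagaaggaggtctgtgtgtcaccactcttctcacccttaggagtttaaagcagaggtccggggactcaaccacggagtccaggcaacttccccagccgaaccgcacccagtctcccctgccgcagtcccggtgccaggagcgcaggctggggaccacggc
The Irf8 stretch is 67.2% G and C and holds TATAAA on the gene's own strand, beginning 31 bases before the start, with GGGCGG on the opposite strand 41 and 230 bases before it. The Clec9a stretch is 35.6% G and C, and its TATAAA lies on the opposite strand, 226 bases before the start. Flt3, at 59.2% G and C, holds none of the 3 motifs. TATAAA is found in 12.4%, GGGCGG in 32.7% and CAGGTG in 17.2% of the 32851 windows of this length in the table, and the median G and C content is 52.4%. All 8 members had a window. Those of Plbd1, Ifi30 and the second start of Irf8 hold CAGGTG, and those of Cst3, Naaa, Ifi30 and Id2 hold GGGCGG. Composite ETS and IRF motifs (GGAA and GAAA with any 2 bases between them, in 2.30% of windows) and interferon response motifs (GAAA, any 2 bases and GAAA again, in 2.98%) were also searched on both strands, and neither set of letters is in a member's window.

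The libraries were shallow, with 361638 gene counts for WT replicate 1, 324954 for WT replicate 2 and 264704 for KO. Values given in threes keep this order, and 9501, 9519 and 8474 genes were detected. Nt5e had 0 counts in every library, so the target could not check the labels. The gate genes were present in all 3 libraries, Kit at 187, 207 and 147 counts and Ly6a, which encodes Sca1, at 60, 19 and 36. Of 17 listed gate and stem cell markers, 16, 17 and 14 were detected. Mecom (31, 21 and 0 counts), Mycn (1, 62 and 0) and Slamf1 (3, 9 and 0) were at 0 in KO. Fgd5 (0, 2 and 6) was at 0 in WT replicate 1. Levels are given as CPM (counts scaled to the same total of gene counts per library), and intervals are exact Poisson intervals at 95%, which cover counting error only. The WT libraries differed by more than counting error. Among the 3242 genes with 20 to 49 counts in the higher WT library, the median absolute difference between the WT libraries was 1.11 on log2(CPM + 10), with a 90th percentile of 2.91, and 14.2% had 0 or 1 count in the other WT library. Nothing says that the WT libraries came from separate mice, so their spread may be technical.

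Of the regulators, Irf8 (chromosome 8, 120736358 to 120756694, mm10) was read once in WT replicate 1, against 37 counts for WT replicate 2 and 126 for KO. These are 2.77 CPM (0.07 to 15.4), 114 CPM (80.2 to 157) and 476 CPM (397 to 567). The 3 intervals do not overlap, so KO was above both WT libraries and the WT libraries were far apart from each other. The WT mean was 58.3 ± 78.6 CPM (SD, n = 2), and KO was 8.16-fold above it. Taken library by library, the ratio of KO was 4.18 to WT replicate 2 (exact conditional binomial interval 2.88 to 6.21) and 172 to WT replicate 1 (30.3 to 6852), and that of WT replicate 2 to WT replicate 1 was 41.2 (6.95 to 1669.8). The size of the fold thus rests on WT replicate 1. In CPM, the gap of 362 between KO and WT replicate 2 was larger than that between the WT libraries. By ratio it was smaller, and on log2(CPM + 10) it was 1.97 against 3.28 between the WT libraries. By rank of count, Irf8 was at place 8974 of 9501 detected genes in WT replicate 1, 2457 of 9519 in WT replicate 2 and 293 of 8474 in KO. The WT pair differed at Irf8 by 3.28 on log2(CPM + 10), beyond the 90th percentile given for genes of that count. Gm20388, annotated as protein-coding, overlaps Irf8 by 20337 bases on the same strand. It was not among the deposited gene symbols, so its counts could not be checked.

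Id2, an inhibitor of E-protein transcription factors that dendritic cells need, had 4, 0 and 3 counts (chromosome 12, 25093799 to 25097140). In CPM it was 11.1 (3.01 to 28.3) in WT replicate 1 and 11.3 (2.34 to 33.1) in KO, and the interval of the 0 in WT replicate 2 reached 11.4 CPM. At 3 counts Id2 was at the floor in KO, and the ratio of KO to the pooled WT libraries was 1.95 with a counting interval of 0.28 to 11.5. A difference in Id2 was not detectable at this depth.

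**Figure D1:**
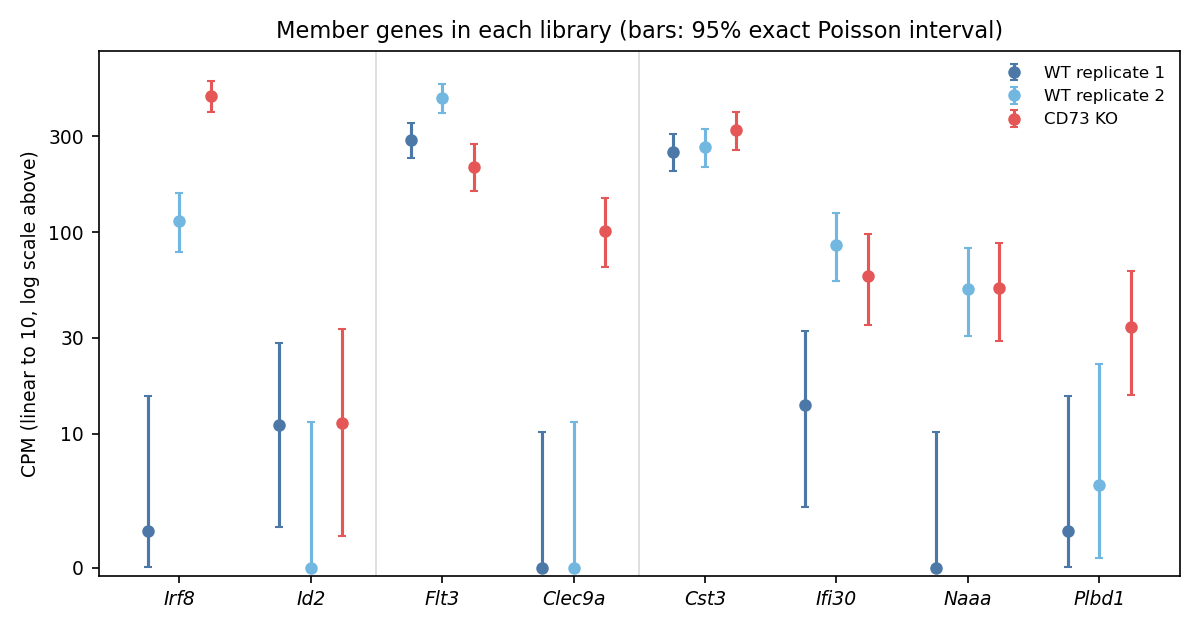
CPM of the 8 members in each library, with points for the libraries and bars for exact Poisson intervals at 95%. The axis is linear to 10 CPM and logarithmic above. Vertical lines part regulators, receptors and the remaining members, Cst3, Ifi30, Naaa and Plbd1. Irf8 stands at 476 CPM and Clec9a at 102 CPM in KO, above both WT libraries, while Flt3 in KO, at 212 CPM, is the lowest of its 3 values.

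Of the receptors, Flt3 (chromosome 5, 147330741 to 147400489) had 104 and 151 counts in the WT libraries (replicates 1 and 2) and 56 in KO, or 288 CPM (235 to 348), 465 CPM (394 to 545) and 212 CPM (160 to 275). KO was the lowest library, but its interval overlapped that of WT replicate 1. The WT mean was 376 ± 125 CPM (SD, n = 2), and KO was 1.78-fold below it. The ratio of KO was 0.74 (0.52 to 1.03) to WT replicate 1 and 0.46 (0.33 to 0.62) to WT replicate 2, and the WT libraries differed between themselves by 1.62-fold (1.25 to 2.09). The gap of 76 CPM between KO and WT replicate 1 was smaller than the gap between the WT libraries, so the lower Flt3 level did not exceed the spread of the WT pair.

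Clec9a, a C-type lectin that detects the exposed actin of dead cells and marks dendritic progenitors and type 1 dendritic cells, had 0 counts in both WT libraries and 27 in KO (chromosome 6, 129408862 to 129424763). Its level in KO was 102 CPM (67.2 to 148). With the WT pair set to a floor of 3 counts in total, this was 23.3-fold higher. The counting interval of the ratio to the pooled WT libraries, which also covers error in the KO count, began lower, at 17.7. Of the 24982 genes, 19 had 0 counts in both WT libraries and at least 27 in KO, Clec9a among them, and 510 had 0 in both and at least 1 in KO. The 27 counts were repeated on the 4 RefSeq transcripts of the gene, and the deposited FPKM (fragments scaled to transcript length and library size) assigned all of it to 1 of them, NM_172732, at 32.2. Clec1b, whose annotation overlaps that of Clec9a by 474 bases on the same strand, had 0 counts in every library.

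Cst3, grouped here with the endosomal and lysosomal proteins, encodes the secreted protease inhibitor cystatin C. It had 91, 86 and 85 counts (chromosome 2, 148871722 to 148875692). At 252 (203 to 309), 265 (212 to 327) and 321 CPM (256 to 397), its intervals all overlapped. The WT mean was 258 ± 9.21 CPM (SD, n = 2) and KO was 1.24-fold above it, a gap larger than that between the WT libraries but within counting error (ratio 1.25 to the pooled WT libraries, 0.95 to 1.62). The WT libraries differed by 1.05-fold at Cst3 (0.77 to 1.43), less than at Flt3, the other member with over 10 counts in both.

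Ifi30, which encodes the thiol reductase GILT that opens disulfide bonds of antigens, had 5, 28 and 16 counts. Its levels were 13.8 (4.49 to 32.3), 86.2 (57.3 to 125) and 60.4 CPM (34.5 to 98.2), so KO lay between the WT libraries (chromosome 8, 70762774 to 70766663). The ratio of KO was 4.37 (1.53 to 15.3) to WT replicate 1 and 0.70 (0.35 to 1.34) to WT replicate 2, so its direction depended on the WT library it was set against.

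Naaa, an acid amidase of lysosomes, had 0, 17 and 14 counts (chromosome 5, 92257659 to 92278170). It was at 52.3 CPM (30.5 to 83.8) in WT replicate 2 and 52.9 CPM (28.9 to 88.7) in KO, with a ratio of 1.01 (0.46 to 2.18), while the interval of the 0 in WT replicate 1 reached 10.2 CPM. With a floor of 3 counts for WT replicate 1, KO was at least 6.38-fold and WT replicate 2 at least 6.31-fold above it. Naaa thus parted WT replicate 1 from the other libraries and not KO from WT.

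Plbd1, a phospholipase B-like lysosomal protein, had 1, 2 and 9 counts (chromosome 6, 136612070 to 136661928), or 2.77 (0.07 to 15.4), 6.15 (0.75 to 22.2) and 34.0 CPM (15.5 to 64.5). KO was above both WT libraries, but its interval overlapped that of WT replicate 2. The ratio of KO to the pooled WT libraries was 7.78, with a counting interval of 1.94 to 44.7.

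In all, the KO value was above both WT values for 6 of the 8 members (Irf8, Clec9a, Plbd1, Cst3, Naaa and Id2), below both for Flt3 and between them for Ifi30. Among all 11402 genes with a count in any library, 29.7% were above both WT libraries in KO and 33.0% were below both, and nothing is read from the members' count, since they were chosen on this comparison. For Naaa and Id2 the KO value passed the higher WT value by under 1 CPM. Of the 3 members that reached 50 counts in any library, Irf8 was 2-fold or more away from both WT libraries and Flt3 and Cst3 were not. By that rule 9.25% of 2831 genes were higher and 17.9% lower in KO. A filter on low counts for the test over all genes kept 6 members and left out Plbd1 and Id2.

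**Figure D2:**
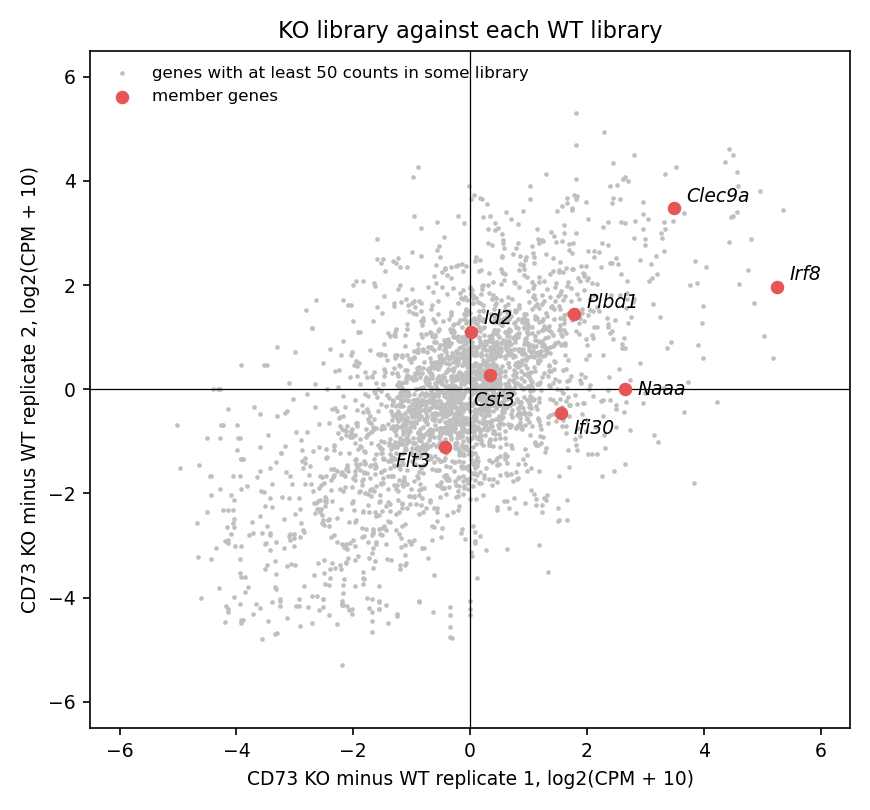
Difference of the KO library from WT replicate 1 (horizontal axis) and WT replicate 2 (vertical axis) on log2(CPM + 10), with grey points for the 2831 genes that reached 50 counts in any library and red points for the members. Irf8 (5.25 and 1.97) and Clec9a (3.49 on both) lie on the upper right, Naaa (2.65 and 0.01) on the horizontal axis, and Flt3 (-0.43 and -1.10) on the lower left.

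Per transcript length, by the deposited FPKM summed over a gene's transcripts, Cst3 was the highest member in every library, at 318, 335 and 409. Flt3 was next in both WT libraries, at 79.1 and 128, and stood at 58.7 in KO, next to Ifi30 at 62.5. Irf8 was at 0.99 and 41.1 FPKM in the WT libraries and at 173 in KO, where Cst3 alone was higher. Within a library, the FPKM of Irf8 was 0.01 times that of Flt3 in WT replicate 1, 0.32 times in WT replicate 2 and 2.94 times in KO. The lower end of the KO order, with Clec9a at 32.2, Naaa at 22.2, Plbd1 at 17.5 and Id2 at 9.03 FPKM, rests on 27 counts or fewer for each gene. Nearly all the Irf8 signal was assigned to transcript NM_008320 (171 FPKM in KO) and little to NM_001301811 (1.34). Naaa was assigned to NM_001163687 alone.

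Among the genes nearest to Irf8 in profile over the 3 libraries (Euclidean distance of centred log2(CPM + 10), 2763 candidates, the genes that reached 50 counts in any library without the members, predicted genes and pseudogenes), the first was Mpeg1, which encodes perforin-2, a pore-forming protein of phagocytes, with 1, 35 and 96 counts and a distance of 0.29. Next were Cops9 (2, 27 and 97 counts, distance 0.55), Slc46a3, a lysosomal transporter (4, 35 and 149, 0.57), Cd74, the invariant chain of MHC class II (7, 150 and 252, 0.70), and Ggt5 (3, 35 and 73, 0.91). All 5 shared with Irf8 the low value in WT replicate 1, at 7 counts or fewer, as well as the high value in KO. The genes nearest to Flt3 were Myc, a driver of growth and division (155, 227 and 85 counts, distance 0.02), Chd8 (55, 79 and 29, 0.02), Was (38, 54 and 19, 0.05), Rsl1d1 (61, 85 and 33, 0.07) and Smarcd1 (39, 54 and 19, 0.08). In each the highest library was WT replicate 2 and the lowest was KO. With 3 libraries such nearness describes only these samples.

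**Figure D3:**
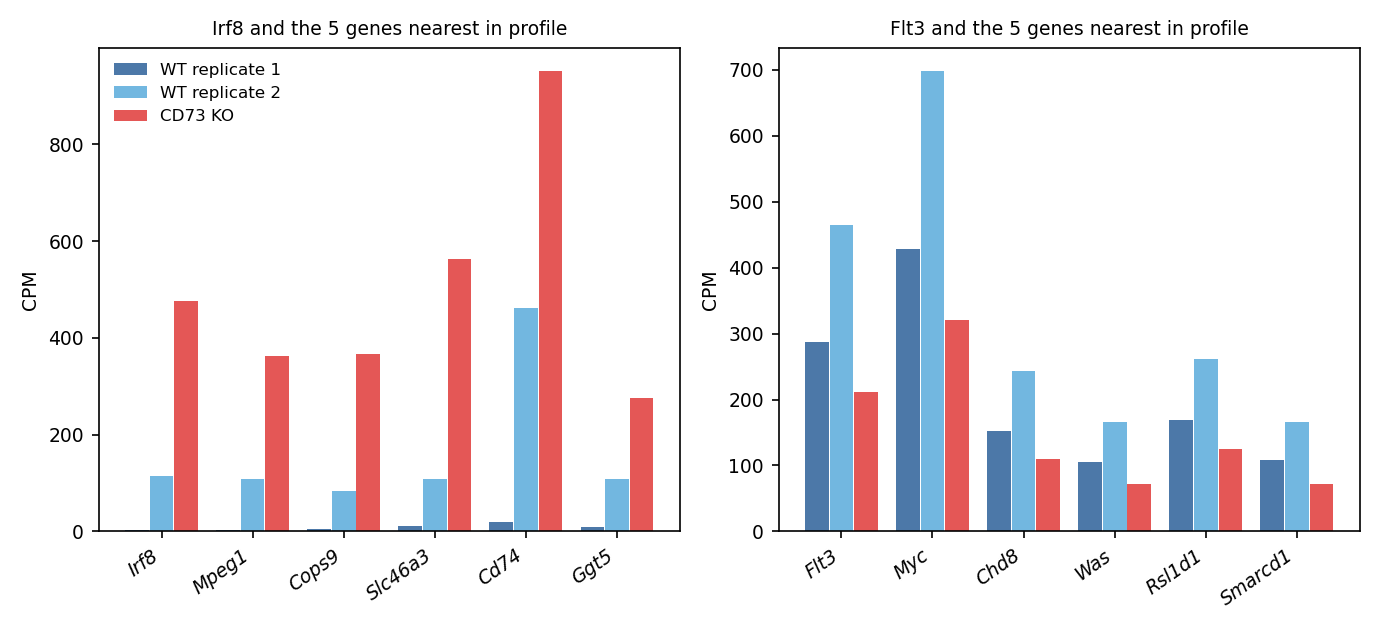
CPM by library of Irf8 with its 5 nearest genes (left) and of Flt3 with its 5 nearest genes (right), as bars from 0. The Irf8 set is near 0 in WT replicate 1 and highest in KO, and the Flt3 set is highest in WT replicate 2 and lowest in KO.

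Genes around the members were counted in the fit over all genes with edgeR's quasi-likelihood test, in which 8 of 7984 genes (0.100%) were higher and 0 lower in KO at a Benjamini-Hochberg adjusted p of 0.05. Without adjustment, 282 genes were higher and 520 lower at p under 0.05. DESeq2 called 0 genes, with 165 higher and 456 lower at an unadjusted p under 0.05. Of 345 listed genes found in the files, 173 were tested and 3 passed, namely H2-Ab1, H2-DMb2 and H2-Aa of MHC class II, with 16 higher and 11 lower at an unadjusted p under 0.05. The lists hold none of the 8 members and were written with earlier results known. The median log2 fold change (KO minus WT) over all tested genes was -0.31.

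Among other IRF genes and the partners of IRF8, 0 of 14 tested genes passed with edgeR or DESeq2 (0 higher and 2 lower at an unadjusted p under 0.05 by either), and the median log2 fold change was -0.32. Spi1, which encodes the partner PU.1, had 4 and 16 counts in WT and 34 in KO (log2 fold change 2.13, SE 1.54, edgeR adjusted p 0.74). Irf4, Spib and Batf3 had 0 counts in every library. Etv6 (150, 98 and 146 counts), Irf2bp2 (76, 77 and 34) and Irf1 (101, 22 and 48) were the most abundant. Ets2 (20, 70 and 0) and Irf2bp1 (31, 51 and 0) were at least 11.9-fold and 10.7-fold lower in KO against a floor of 3 counts, with adjusted p of 0.16 and 0.21 by edgeR. Among 17 tested transcription factors of the dendritic lineage, 0 passed with either tool (0 at an unadjusted p under 0.05), 13 had a negative fold change and the median was -0.77. Myc, Cbfa2t3 (106, 79 and 95 counts) and Ikzf1 (54, 172 and 43) were the most abundant, and Zbtb46, Klf4 and Nr4a3 had 0 counts throughout. The E-protein genes on which ID2 acts, Tcf3 (86, 39 and 63 counts), Tcf4 (22, 12 and 34) and Tcf12 (0, 50 and 5), did not pass (0 of 3 by edgeR or DESeq2, 0 at an unadjusted p under 0.05), and Id1 and Id3 had at most 1 count.

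For FLT3 signalling, 0 of 26 tested genes passed with edgeR or DESeq2 (0 higher and 2 lower at an unadjusted p under 0.05 by either), with a median log2 fold change of -0.50. Its most abundant genes were the kinases Pim1 (210, 153 and 80 counts), Syk (206, 126 and 62) and Pik3cd (223, 83 and 80). Lyn, a Src-family kinase, had 23, 87 and 1 counts (log2 fold change -5.27, SE 1.82, edgeR adjusted p 0.21), and Flt3l, the ligand, had 7, 2 and 5. Lymphoid-primed progenitor genes, which accompany Flt3 in the gate, gave 0 of 13 past the test (0 higher and 2 lower at an unadjusted p under 0.05, 0 and 1 by DESeq2), with 10 negative fold changes and a median of -0.67. Among them Dntt, the terminal transferase, had 39, 87 and 0 counts, at least 16.6-fold lower in KO against 3 counts (edgeR adjusted p 0.077).

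Type 1 conventional dendritic markers other than the members were detected for 8, 9 and 15 of 24 genes. Over all genes, 9501, 9519 and 8474 were detected. The type 1 markers summed to 694, 689 and 1020.0 CPM. The defining genes Batf3, Itgae, Cd8a and Btla were at 0 in every library, Xcr1 had 0, 2 and 3 counts and Cadm1 had 0, 0 and 8. Most of the sum came from Wdfy4 (99, 105 and 61 counts), Cd24a (74, 14 and 48) and Rab32 (4, 54 and 42). By CPM, none of these was highest in KO. Snx22 had 0, 1 and 30 counts (log2 fold change 5.96, SE 2.25, edgeR adjusted p 0.26), and 0 of 6 tested genes passed with either tool (1 higher and 0 lower at an unadjusted p under 0.05). Type 2 markers were detected in 7, 9 and 6 of 14 genes, and summed to 277, 483 and 321 CPM. Of 7 tested genes 2 had a positive and 5 a negative fold change. Itgam, which encodes CD11b, had 4, 18 and 35 counts and Sirpa 8, 8 and 23, both highest in KO, while Clec10a (32, 17 and 0) and Mgl2 (12, 24 and 0) were at least 6.21-fold and 4.72-fold lower there against 3 counts. The other abundant genes were Clec12a (10, 49 and 15) and Esam (28, 17 and 9), and 0 of 7 passed with either tool (0 higher and 1 lower at an unadjusted p under 0.05). General markers of conventional dendritic cells summed to 119, 172 and 79.3 CPM, with Zbtb46, Ccr7, Clec7a and Fscn1 at 0 and Itgax, which encodes CD11c, at 4, 0 and 0 counts, and neither of its 2 tested genes passed with either tool (0 at an unadjusted p under 0.05). Plasmacytoid markers summed to 758, 686 and 869 CPM in 7, 6 and 7 of 20 genes, most of it from Ptprs (145, 128 and 68 counts) and Runx2 (59, 75 and 11), with Siglech, Ccr9, Ly6d and Spib at 0. Tlr9, a nucleic acid sensor, had 0, 0 and 21 counts, at least 18.2-fold higher in KO against 3 counts, and Smim5 had 15, 0 and 45. None of 7 tested plasmacytoid markers passed with edgeR or DESeq2 (2 higher and 0 lower at an unadjusted p under 0.05 by edgeR). In bulk RNA, more cells of a type and more RNA per cell cannot be told apart.

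Markers of monocytes and macrophages, which IRF8 also serves, were detected in 9, 16 and 14 of 20 genes and summed to 501, 1696 and 1258 CPM, lowest in WT replicate 1 as for Irf8 but highest in WT replicate 2. Beside Mpeg1, Ccr2, the chemokine receptor of inflammatory monocytes, had 0, 6 and 39 counts and Csf1r, the M-CSF receptor, 0, 4 and 14. Lyz2 had 32, 112 and 20 counts, and Cd14, Fcgr1 and S100a4 had 0 in every library. With edgeR and DESeq2, 0 of 11 tested genes passed (2 higher and 0 lower at an unadjusted p under 0.05 by edgeR). The part of monocyte or dendritic cells in the Irf8 values was not tested.

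Genes listed for lysosomes and antigen processing, without the members, summed to 3650.1, 4219 and 3661 CPM, so their total differed little between the libraries. None of 18 tested genes passed with edgeR or DESeq2 (1 higher and 0 lower at an unadjusted p under 0.05 by either), and the median log2 fold change was -0.47. Laptm5 (251, 466 and 236 counts), Psap (280, 249 and 201) and Ctsa (127, 42 and 89) were the most abundant. Hexa, a lysosomal hexosaminidase, had 45, 18 and 118 counts (log2 fold change 2.34, SE 0.90, edgeR adjusted p 0.27), whereas Ctss, a cathepsin that Cst3 inhibits, had 0, 9 and 2. Other cystatin genes were nearly silent: 6 of 10 had 0 counts in every library, and Stfa1, the most abundant, had 2, 17 and 7. Of 18 other C-type lectin receptor genes 7 had 0 counts throughout, and Clec2d (46, 35 and 53 counts), Clec12a (10, 49 and 15) and Clec10a were the most abundant. In these last 2 lists 0 genes passed with either tool, and Clec10a was the only one at an unadjusted p under 0.05 with edgeR. Neutrophil genes summed to 4380.1, 5684 and 6804 CPM, highest in KO, with Mpo at 692, 667 and 992 counts (edgeR adjusted p 0.067), Elane at 74, 212 and 273 and Prtn3 at 220, 216 and 164. S100a9 (92, 164 and 36 counts) and Lcn2 (27, 67 and 1) were lowest in KO, and of 12 tested genes 6 had a positive and 6 a negative fold change. Car1, an erythroid gene, had 0, 0 and 20 counts and Pf4, a megakaryocyte gene, 2, 0 and 25. The part of these lineages in the Irf8 values was not tested. In the lists of neutrophil, erythroid, B, T and NK, mast cell, megakaryocyte, stroma and stem cell genes 0 passed with either tool, with at most 2 higher and 3 lower at an unadjusted p under 0.05 in any of them. Among the listed MHC class II genes, Cd74, also near Irf8 in profile and no member, was the most abundant. It had 7, 150 and 252 counts (log2 fold change 2.04, SE 0.61). H2-Ab1 had 24 and 11 counts in WT and 201 in KO (log2 fold change 3.94, SE 0.81).

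**Figure D4:**
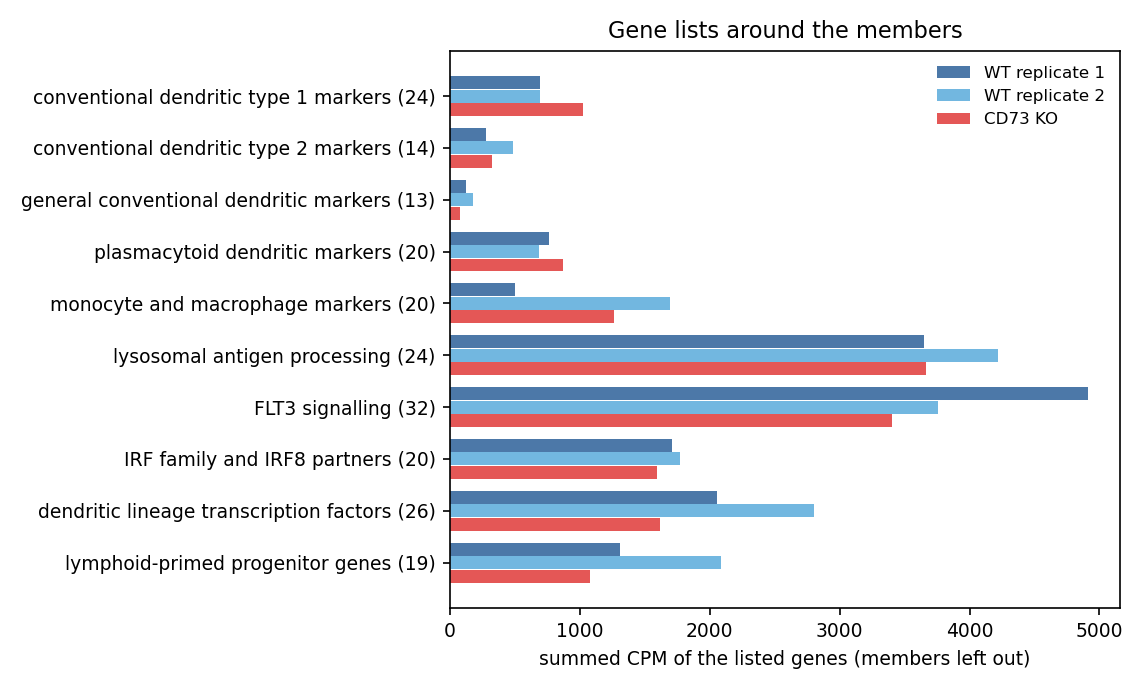
Summed CPM of the lists around the members, with the number of genes found in the files in parentheses and the members left out; bars start at 0. Monocyte and macrophage markers are lowest in WT replicate 1 (501 CPM), and type 1 dendritic markers are at 694, 689 and 1020.0 CPM, with KO the highest.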

How the data were processed

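Per the labels' protocols, total RNA of sorted LKS cells came from the RNeasy micro kit and NEB kits served for the libraries. The authors deposited whole-number counts and FPKM values per RefSeq transcript for each library. STAR and mm10 are named in the submitters' processing notes; how reads were counted, and whether by strand, is not given in the sources used here. A gene count was the highest count over a symbol's transcript rows (42574 rows), and CPM used the total of gene counts. The 8 members and the 22 gene lists were chosen with earlier results of these data known. Named genes were the members, listed genes past the test, up to 3 of the most abundant genes of a list, and the 5 genes nearest in profile to Irf8 and to Flt3; other genes were named after their values were seen. Promoter motifs were also chosen then. The test over all genes was that of edgeR 4.0.16 under R 4.3.3 (filterByExpr, TMM, quasi-likelihood F-test, Benjamini-Hochberg, threshold 0.05), with DESeq2 1.42.0 as an alternative. SE is the log2 fold change over the square root of F, and is not given where a group is at 0. A fold given as at least, against a floor of 3 counts, leaves out counting error in the other group. There is 1 residual degree of freedom, from the WT pair, and the single KO library was assumed to vary like it. With 2 libraries against 1, an exact permutation test cannot go below 0.333, so none was run. On simulated data for the KO and WT comparison (6926 genes), the fit called 74% of the genes set 16-fold up, 8% of those 4-fold up, 4.08% of those set to 0.0625 of their level and 2% of those set to 0.25, with 2 false calls. The changed genes were drawn only from the more abundant tested genes, so these shares do not cover genes as low as Clec9a.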

Additional observations from a re-analysis of the deposited data

How the results depend on the processing

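Of 61 recomputed log2 ratios of the members, 50 moved by no more than 1 SD of the WT pair on log2(CPM + 10), or the counting interval for Clec9a. That SD was wide where the WT libraries disagreed, at 2.32 for Irf8 and 1.87 for Naaa against 0.05 for Cst3. The count of 50 therefore does not measure stability. For Naaa the ratio was 1.02 in the main setting, 0.016 without WT replicate 1 and 2.67 without WT replicate 2. With a pseudocount of 10 CPM the ratio was 3.49 for Clec9a and 1.62 for Plbd1, and with DESeq2 size factors it was 0.37 for Cst3. Against a single WT library it ranged from 2.06 to 7.43 for Irf8, from 3.47 to 3.62 for Clec9a (bounds), from 2.47 to 3.62 for Plbd1 and from -0.51 to 2.13 for Ifi30, whose sign changed without WT replicate 1. Id2 gave 0.035 without WT replicate 2 and no fold without WT replicate 1, where both groups were at the floor. The deposited FPKM gave no fold for Clec9a, listed at 0 in WT. The count of genes past the test fell from 8 to 4 with no filter on low counts, to 1 with the mean count over transcript rows, to 0 with at least 10 counts in every library or 50 in any (102 higher and 238 lower at an unadjusted p under 0.05, edgeR), and to 0 with DESeq2. The listed genes past the test went from 3 to 0 with DESeq2 and to 0 with the mean count. Genes at least 2-fold from each WT library numbered 770.0, against 495 at 3-fold and 2207 with at least 20 counts. The causes were not tested. Leaving out a WT library leaves no residual degrees of freedom, so no test was run there. No paired analysis was possible because the KO library carries no replicate number and is alone in its group. Id2, Plbd1, Naaa, Clec9a and Ifi30 had 28 counts or fewer in every library, so depth limits their values.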
